A study of Mus musculus with 6 samples.

Results

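The genes of DNA replication and mitosis were followed in innate lymphoid cell precursors (ILCPs), the marrow progenitors that give rise to the innate lymphoid cells. The 45 members were taken by symbol from the 16383 gene rows of the deposited table, 25 of them known for S phase and 20 for M phase, and all 45 passed the filter on low counts of the test used below. GFP+ ILCPs, which expressed the ET-2 transgene, were set against GFP- ILCPs from the same animals, all of them Rag1cre;ET-2 mice of the C57BL/6 strain, with age not given in the labels. Both fractions were sorted as Lin-, Flt3-, IL7Rα+, α4β7+, CD90+ and CD25- cells from bone marrow, and each of the 3 replicates per fraction pooled several mice. ET-2 is known, as background, as an engineered protein that carries E protein activation domains on the DNA-binding part of TAL1, and it becomes active where Cre driven by Rag1 regulatory sequence has acted. GFP+ cells therefore share a history of Rag1-driven Cre as well as ET-2, and since no analysed library came from Rag1cre mice without ET-2, the 2 cannot be told apart. In RNA from sorted populations, fewer cycling cells and less RNA per cycling cell cannot be told apart either.

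In a dividing cell, origins are licensed in G1 when ORC, Cdc6 and Cdt1 load the MCM helicase, and the helicase is switched on in S phase by Cdc45 and the GINS complex. The clamp loader RFC then places the ring-shaped clamp PCNA on primed DNA so that the polymerases stay attached, and mitosis follows under cyclin B with Cdk1, the Aurora and Polo kinases and the spindle checkpoint. S phase genes are known as targets of E2F factors, whereas many genes of G2 and M phase are bound by the DREAM and MuvB complexes through a cell cycle homology region (CHR), often beside CCAAT boxes.

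The promoters of the members showed this division. RefSeq promoter windows on GRCm38.p6, each of 300 bases from 250 before to 50 after the start, were matched for 35 of the 45 members by symbol, with 21 windows for S phase and 15 for M phase genes, since Mcm7 had 2. The letters TTTCCCGC, TTTCGCGC, TTTGCCGC or TTTGGCGC of an E2F site, read on both strands, stood in 8 of the 21 S phase windows (38.1%) and 1 of the 15 M phase windows (6.67%), against 2.26% of all 32851 windows. The CHR letters TTTGAA stood in 2 S phase windows (9.52%) and 10 M phase windows (66.7%), against 17.9% of all windows. The letters CCAAT stood in 71.4% of the S phase windows and 86.7% of the M phase windows, against 37.4% of all. Each of the 10 M phase windows with a CHR also held a CCAAT box, a pairing present in 6.95% of all windows. These letter matches describe the windows and are not evidence of binding.

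**Figure D1:**
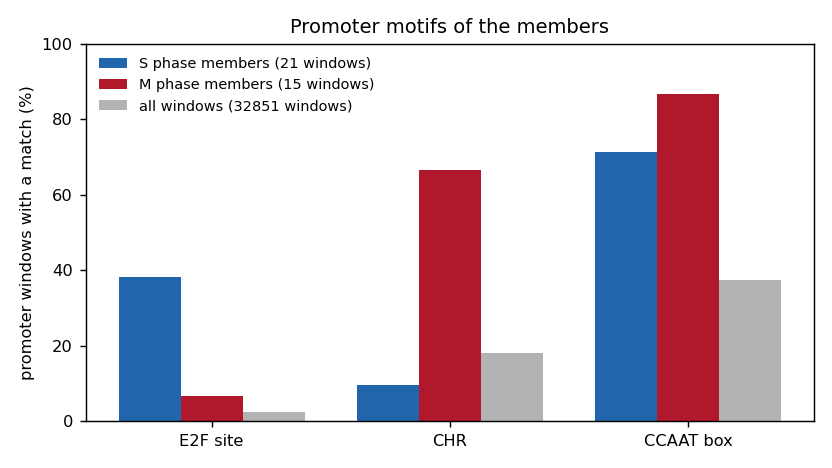
Share of promoter windows with at least 1 match to an E2F site, a CHR or a CCAAT box (y axis, percent), for S phase members (blue), M phase members (red) and all windows (grey). E2F letters stood in 38.1% of the S phase windows and 6.67% of the M phase windows, and the CHR letters in 9.52% and 66.7%.

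4 of these windows are shown because the results below turn on their genes, with the motif matches in capitals on whichever strand they lie. Mcm6 (chr1:128359656-128359955, minus strand), a helicase subunit of high level, had 3 E2F matches, 2 of them overlapping on opposite strands, and 2 CCAAT boxes. Mki67 (chr7:135716330-135716629, minus strand) and Ccnb2 (chr9:70421505-70421804, minus strand) each had 2 CHR matches and 3 CCAAT boxes. Rfc1 (chr5:65335590-65335889, minus strand), the clamp loader gene at 0 in every GFP+ library, had 2 CCAAT boxes and no E2F or CHR letters in this window.
Mcm6: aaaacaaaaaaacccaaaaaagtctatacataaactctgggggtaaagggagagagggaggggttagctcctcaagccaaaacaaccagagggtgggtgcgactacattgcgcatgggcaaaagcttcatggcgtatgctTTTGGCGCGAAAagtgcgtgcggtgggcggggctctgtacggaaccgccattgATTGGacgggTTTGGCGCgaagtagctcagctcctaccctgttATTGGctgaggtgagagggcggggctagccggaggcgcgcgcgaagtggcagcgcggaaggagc
Mki67: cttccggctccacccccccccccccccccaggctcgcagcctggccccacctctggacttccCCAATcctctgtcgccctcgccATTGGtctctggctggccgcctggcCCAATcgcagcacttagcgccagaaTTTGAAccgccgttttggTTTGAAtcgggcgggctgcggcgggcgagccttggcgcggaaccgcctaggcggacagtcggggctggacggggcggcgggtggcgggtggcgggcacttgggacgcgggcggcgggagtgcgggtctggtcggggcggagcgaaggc
Ccnb2: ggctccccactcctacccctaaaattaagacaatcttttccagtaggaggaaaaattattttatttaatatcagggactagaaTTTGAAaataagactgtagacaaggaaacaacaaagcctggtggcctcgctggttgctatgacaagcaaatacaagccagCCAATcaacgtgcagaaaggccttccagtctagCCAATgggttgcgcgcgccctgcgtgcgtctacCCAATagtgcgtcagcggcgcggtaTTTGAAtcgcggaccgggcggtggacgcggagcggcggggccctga
Rfc1: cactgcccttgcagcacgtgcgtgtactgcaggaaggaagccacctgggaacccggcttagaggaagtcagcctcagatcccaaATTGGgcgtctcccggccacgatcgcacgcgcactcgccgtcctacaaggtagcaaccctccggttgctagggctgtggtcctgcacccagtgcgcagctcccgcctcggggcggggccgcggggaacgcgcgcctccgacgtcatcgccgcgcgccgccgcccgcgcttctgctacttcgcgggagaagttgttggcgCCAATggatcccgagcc

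The 6 libraries held 10432461 to 19038554 estimated counts, and values are given as CPM, counts scaled to the size of each library by TMM, in the order of replicates 1, 2 and 3. ILC precursor and sort genes such as Il7r, Thy1 and Id2 had counts in every library, 9 of 9. Within that list Tcf7 and Tox, transcription factors of early innate lymphoid cells, were lowest in GFP+ replicate 3, at 343 and 135 CPM, against at least 1114 and 486 CPM in the other libraries. Itga4 was lowest there too, at 1795 CPM. Itgb7, Thy1, Id2, Gata3 and Bcl11b were instead highest there, at 332, 509, 525, 945 and 473 CPM. GFP+ replicate 3 stood apart: its summed B lineage markers reached 9794 CPM and its plasma cell markers 881 CPM, against at most 1366 and 58.1 CPM in any other library. Ighm and Jchain, immunoglobulin genes, gave 9705 and 802 CPM of these sums, while Pax5 and Flt3 were at 0 there. Its 7 neutrophil and monocyte markers summed to 1656 CPM, against 852 and 25.3 CPM in the other two GFP+ libraries and 174 to 374 CPM in GFP- libraries. Il2ra, which encodes the CD25 sorted against, reached 2032 CPM there, against at most 396 CPM in any other library. GFP+ replicate 3 also had the fewest genes above 0, 11240 of 16383, where the others had 12576 to 15016. Cpa3, a mast cell protease, led mast cell and basophil markers that summed to 383, 1207 and 1082 CPM in GFP+ libraries, against 201, 195 and 932 CPM in GFP- libraries. Cpa3 alone stood at 329, 1200 and 982 CPM in GFP+ libraries, against 149, 161 and 498 CPM in GFP- libraries. Fcer1a was at 0 in every GFP+ library. Mcpt8, Ms4a2 and Fcer1a were highest in GFP- replicate 3, at 341, 36.1 and 19.4 CPM. Prss34 and Gata2 were highest in GFP+ replicates 3 and 1, at 30.6 and 13.6 CPM. T cell markers summed to 363, 161 and 23.2 CPM in GFP+ libraries, against 188, 109 and 83.2 CPM in GFP- libraries. Erythroid markers summed to 28.2, 0 and 96.2 CPM in GFP+ libraries, against 17.8, 38.5 and 2.72 CPM in GFP- libraries. The part of these differences in the results below was not tested. Ranges of the members' fold changes with libraries left out are in the closing section, and the libraries that move the genes described most are named beside them.

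With edgeR's quasi-likelihood test and Benjamini-Hochberg adjustment over all 12199 genes tested, no gene was called at 0.05, so the percentage called was 0 and 0 of the 45 members were called. Of all genes, 3.23% had an unadjusted p below 0.05, and 2 of the 45 members did, Rfc1 and Ccnb2. DESeq2 called 60 genes, 0.411% of those with an adjusted p, and 1 member, Rfc1. The authors' deposited table called 0.703% of genes and, of the members, Rfc1 alone. Every GFP+ library lay below every GFP- library for 3 members, Mcm4, Rfc1 and Bub1b, while the same was true of 6.01% of all genes tested, so this count is near the background. For Rfc1, at 0 in every GFP+ library, this was fixed once it passed the filter on low counts. Every GFP+ library lay above every GFP- library for 0 members, against 3.17% of all genes tested. Fitted log2 fold changes of GFP+ over GFP- were negative for 18 of the 25 S phase members and 16 of the 20 M phase members, against 51.0% of all genes tested, and none of them passed edgeR's test.

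**Figure D2:**
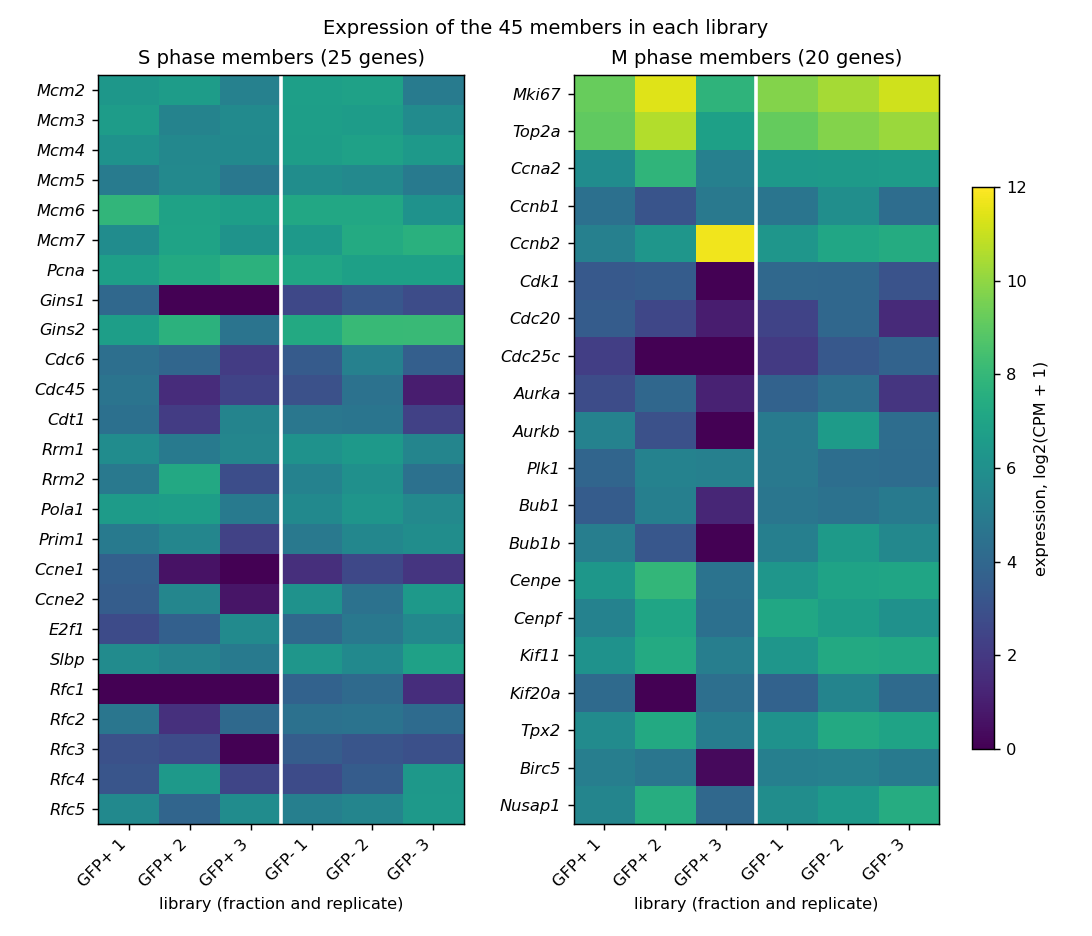
Expression of the 25 S phase members (left) and 20 M phase members (right) as log2(CPM + 1), colour scale 0 to 12, with GFP+ libraries left of the white line and GFP- libraries right of it. Rfc1 is at 0 in the 3 GFP+ libraries, Ccnb2 is brightest in GFP+ replicate 3, and 8 members are at 0 in GFP+ replicate 3.

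Rfc1, the large subunit of the RFC clamp loader (chr5:65261850-65335670 on GRCm38, minus strand), had 0, 0 and 0 counts in GFP+ libraries, against 183, 359 and 25 counts in GFP- libraries. In CPM it stood at 0 in every GFP+ library, against 12.8, 16.5 and 1.94 CPM in GFP- libraries. The groups did not overlap, although GFP- replicate 3 was low, at 25 counts. At 0 in every GFP+ library, Rfc1 could pass the filter on low counts only through GFP- libraries, which fixed this lack of overlap in advance. All 16 tested genes at 0 in every GFP+ library, 0.131% of genes tested, had counts in every GFP- library. With the floor set at 3 counts for the whole group, Rfc1 was at least 126-fold lower in GFP+ ILCPs, a bound that covers counting error only and ran from 71.1-fold to 177-fold when single libraries were left out. Within pairs from the same pooled mice, with the floor of 3 counts for a single library, it was at least 67.4-fold, 66.3-fold and 5.45-fold lower.

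DESeq2 gave Rfc1 a log2 fold change of -9.32 ± 1.71 (SE) with an adjusted p of 0.000176, and the adjusted p lay between 3.26e-05 and 0.0361 over the DESeq2 alternatives. EdgeR's adjusted p for Rfc1 was 0.998 at an unadjusted p of 0.00235, and none of its alternatives called it. The fitted folds of a gene at 0 depend on how each tool treats a group at 0 and are not bounds.

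The genes on either side of Rfc1 in the table were detected in all libraries. Tmem156, 170 kb away, stood at 46, 22 and 18.7 CPM in GFP+ libraries, against 29.5, 32.2 and 40.2 CPM in GFP- libraries. Rpl9, a ribosomal protein gene 52.7 kb away on the other side, stood at 330, 178 and 1133 CPM in GFP+ libraries, against 318, 217 and 226 CPM in GFP- libraries. In both neighbours the groups overlapped.

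The 4 small subunits that share the complex with Rfc1 each had counts in at least 2 GFP+ libraries. Rfc2, an ATPase subunit, stood at 25.3, 2.16 and 15.9 CPM in GFP+ libraries, against 21.1, 23 and 17.3 CPM in GFP- libraries. Rfc3 stood at 6.92, 5.64 and 0 CPM in GFP+ libraries, against 10.8, 7.95 and 6.53 CPM in GFP- libraries. GFP+ replicate 2 was low for Rfc2 and GFP+ replicate 3 was at 0 for Rfc3, and the groups overlapped for both. Rfc4, another ATPase subunit, stood at 7.93, 85.3 and 4.64 CPM in GFP+ libraries, against 5.61, 10.3 and 83.5 CPM in GFP- libraries. Rfc5 stood at 50.6, 14.3 and 56.9 CPM in GFP+ libraries, against 35.5, 42.9 and 86.9 CPM in GFP- libraries. Rfc4 was high in 1 library of each fraction, GFP+ replicate 2 and GFP- replicate 3, and the groups overlapped for Rfc4 and Rfc5. The gene spans of Rfc2, Rfc4 and Rfc5 overlap those of Lat2, Eif4a2 and Wsb2, and without a stated strand some reads of these pairs may be shared.

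The small subunits summed to 90.7, 107 and 77.5 CPM in GFP+ libraries, against 73, 84.2 and 194 CPM in GFP- libraries. Their means were 91.9 ± 15 CPM in the GFP+ fraction and 117 ± 66.9 CPM in the GFP- fraction (SD, n = 3), and GFP- replicate 3 was the high library through Rfc4. EdgeR's log2 fold changes were -0.50 ± 0.98, -1.0 ± 1.59, -0.02 ± 1.26 and -0.44 ± 0.71 (SE) for Rfc2, Rfc3, Rfc4 and Rfc5, and the sign of Rfc4 turned positive with DESeq2 or its size factors. That of Rfc3 became -0.43 with GFP+ replicate 3 dropped. Per kilobase of exon, Rfc1 was the lowest subunit in both fractions, at 0 in GFP+ and 1.73 ± 1.26 CPM per kb in GFP- ILCPs, where Rfc3 had 1.16 ± 1.02 CPM per kb in GFP+ and 2.33 ± 0.601 CPM per kb in GFP- ILCPs. Rfc4 had the highest mean, with 21.3 ± 29.8 CPM per kb in GFP+ and 21.6 ± 28.5 CPM per kb in GFP- ILCPs. These means rest on GFP+ replicate 2 and GFP- replicate 3, at 85.3 and 83.5 CPM, and the ranking does not hold in every library.

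Other clamp loaders use the same small subunits with a different large one. Rad17, which loads the checkpoint clamp, stood at 28.5, 11.7 and 30.2 CPM in GFP+ libraries, against 17, 23.1 and 15.5 CPM in GFP- libraries. Atad5, which unloads PCNA, stood at 89.8, 225 and 50.3 CPM in GFP+ libraries, against 58, 78 and 116 CPM in GFP- libraries. Chtf18, the large subunit of the loader for sister chromatid cohesion, stood at 1.9, 11 and 0 CPM in GFP+ libraries, against 4.21, 1.56 and 2.96 CPM in GFP- libraries. Rad17 and Atad5 had counts in every GFP+ library, Chtf18 was at 0 in GFP+ replicate 3, and the groups overlapped for all 3. Of the 8 genes of the other clamp loaders and the checkpoint clamp, 5 had positive and 3 negative log2 fold changes, with a median of 0.22 and 0 called by edgeR or without overlap between groups. Of all genes tested, 6.01% lay wholly lower and 3.17% wholly higher in GFP+. Chtf8, a partner of Chtf18 and the gene of highest mean in the list, stood at 156 ± 62.1 CPM in the GFP+ fraction and 188 ± 157 CPM in the GFP- fraction (mean ± SD, n = 3).

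**Figure D3:**
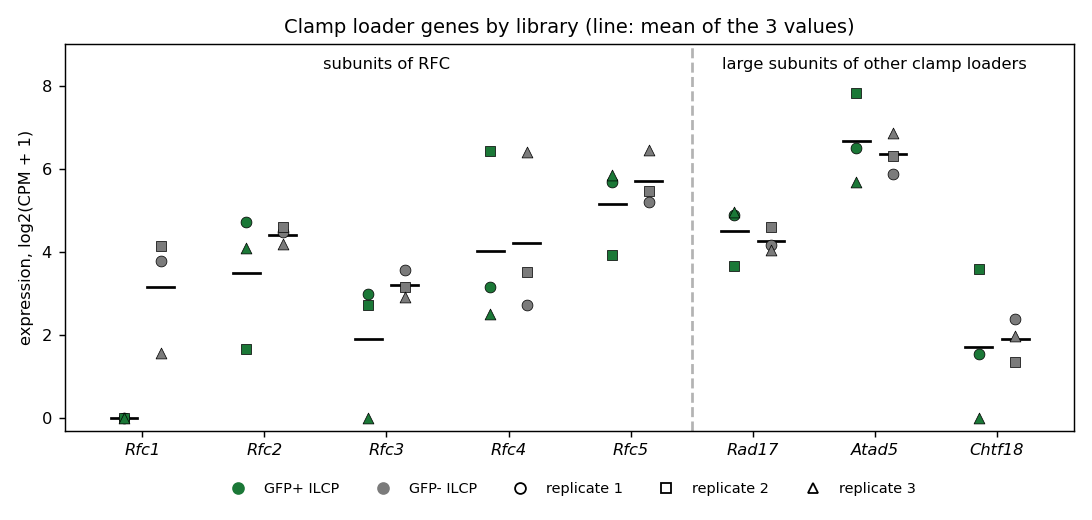
Clamp loader genes in each library as log2(CPM + 1), with GFP+ (green) left of GFP- (grey), symbols for replicates and lines for the mean of the 3 plotted values. Rfc1 is at 0 in the 3 GFP+ libraries, and every other gene shown has counts in at least 2 GFP+ libraries.

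The MCM helicase was detected in every library. Mcm4 stood at 67.5, 48 and 50.5 CPM in GFP+ libraries, against 100, 116 and 89.1 CPM in GFP- libraries. It was the only helicase subunit whose groups did not overlap, and its log2 fold change was -0.88 ± 0.51 (SE; edgeR adjusted p 0.998). Mcm7 stood at 55.5, 123 and 71.6 CPM in GFP+ libraries, against 85.5, 162 and 198 CPM in GFP- libraries. Mcm6 stood at 236, 118 and 106 CPM in GFP+ libraries, against 144, 144 and 67.7 CPM in GFP- libraries. Mcm7 was lower in GFP+ in each of the 3 pairs and Mcm6 in 1 of them, and the groups overlapped for both. The gene spans of Cops6 and Ap4m1 overlap that of Mcm7, and without a stated strand some of its reads may be theirs.

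Of the other subunits, Mcm2 stood at 80, 97.5 and 37.6 CPM in GFP+ libraries, against 109, 117 and 30.7 CPM in GFP- libraries. Mcm3 stood at 97.1, 39.8 and 52 CPM in GFP+ libraries, against 105, 98.5 and 54 CPM in GFP- libraries. Mcm5 stood at 31.2, 49.6 and 27.4 CPM in GFP+ libraries, against 58.6, 49.9 and 28.5 CPM in GFP- libraries. In the GFP- fraction replicate 3 was the low library for all of these and for Mcm6, and the groups overlapped throughout. The 6 subunits summed to 567, 476 and 345 CPM in GFP+ libraries, against 603, 688 and 468 CPM in GFP- libraries, lower in GFP+ in each pair while the groups overlapped. Per kilobase of exon, the subunits spanned 9.03 (Mcm5) to 32.9 (Mcm6) CPM per kb in GFP+ and 11.4 (Mcm5) to 33.6 (Mcm7) CPM per kb in GFP- ILCPs.

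Licensing factors were lower in level per kilobase of exon than the helicase subunits: Cdc6 had 2.39 ± 1.59 and Cdt1 7.02 ± 6.17 CPM per kb in GFP+ ILCPs, against 3.8 ± 3.03 and 5.79 ± 3.91 CPM per kb in GFP- ILCPs. Of these factors, which load the MCM ring, Cdc6 ranged over 3.45 to 19.7 CPM in GFP+ libraries and 9.88 to 38.2 CPM in GFP- libraries. Cdt1 ranged over 3.32 to 42 CPM in GFP+ libraries and 4.04 to 26.1 CPM in GFP- libraries. The log2 fold changes of Cdc6 and Cdt1 were -0.67 ± 1.01 and 0.28 ± 1.07 (SE), and that of Cdt1 became -0.020 with scaling to library totals. Among the 19 other genes of origin licensing and firing, 5 had positive and 14 negative log2 fold changes, with a median of -0.51 against -0.03 for all genes tested, and 0 were called by edgeR. Topbp1, an initiation and checkpoint scaffold, stood at 143 ± 76.9 CPM in the GFP+ fraction and 341 ± 198 CPM in GFP- ILCPs, and Orc3, a subunit of the origin recognition complex, at 181 ± 119 CPM in GFP+ and 238 ± 85.3 CPM in the GFP- fraction (mean ± SD, n = 3). In 4 of the 19 (21.1%) every GFP+ library lay below every GFP- library, against 6.01% of all genes tested, and in 1 above, against 3.17%.

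GINS, which joins Cdc45 and MCM in the active helicase, is represented by Gins1 and Gins2. Gins2 stood at 104, 208 and 23.3 CPM in GFP+ libraries, against 156, 269 and 281 CPM in GFP- libraries. It was lower in GFP+ in each pair, with GFP+ replicate 3 the lowest library and GFP+ replicate 2 above GFP- replicate 1, and its log2 fold change was -1.07 ± 0.71 (SE). It became -0.59 with GFP+ replicate 3 dropped and -1.89 with GFP+ replicate 2 dropped. Gins1 stood at 15.4, 0 and 0 CPM in GFP+ libraries, against 5.12, 8.5 and 5.91 CPM in GFP- libraries. Gins1 was thus at 0 in 2 GFP+ libraries and highest in the other, so that DESeq2, which left its adjusted p empty with all libraries, gave 0.000542 without GFP+ replicate 1. Dropping that library left Gins1 at 0 in every remaining GFP+ library, in a fit that called 682 of 13319 genes. No conclusion is drawn from that value. Cdc45 ranged over 1.91 to 23.8 CPM in GFP+ libraries and 0.933 to 21.9 CPM in GFP- libraries.

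Pcna, the sliding clamp that RFC loads, stood at 109, 157 and 205 CPM in GFP+ libraries, against 136, 112 and 112 CPM in GFP- libraries. GFP+ replicate 3 was highest, GFP+ replicate 1 was below all GFP- libraries, and the log2 fold change was 0.39 ± 0.48 (SE). It became 0.14 with GFP+ replicate 3 dropped and 0.65 with GFP+ replicate 1 dropped. Per kilobase of exon it was the highest S phase member in GFP+ ILCPs, at 65.4 ± 20.1 CPM per kb, against 50.1 ± 5.61 CPM per kb in GFP- ILCPs. Pola1, the catalytic subunit of DNA polymerase alpha, ranged over 29.2 to 101 CPM in GFP+ libraries and 49.3 to 76.3 CPM in GFP- libraries. Prim1, the catalytic subunit of primase, ranged over 4.17 to 44.3 CPM in GFP+ libraries and 27.5 to 57.8 CPM in GFP- libraries. The log2 fold changes of Pola1 and Prim1 were 0.34 ± 0.62 and -0.75 ± 0.86 (SE). The 24 other polymerase and fork genes split evenly, 12 with positive and 12 with negative log2 fold changes, at a median of -0.13 and with 0 called by edgeR. In 2 of the 24 (8.33%) every GFP+ library lay below every GFP- library, near the 6.01% of all genes tested, and in 0 above, against 3.17%. Top1, a topoisomerase, stood at 187 ± 95.3 CPM in the GFP+ fraction and 149 ± 26.6 CPM in GFP- ILCPs, and Lig1, the ligase that joins Okazaki fragments, at 86.3 ± 65.6 CPM in GFP+ and 137 ± 11.8 CPM in the GFP- fraction (mean ± SD, n = 3).

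Rrm2, the regulated subunit of ribonucleotide reductase, stood at 27.6, 148 and 6.19 CPM in GFP+ libraries, against 38.5, 63.5 and 20.9 CPM in GFP- libraries. GFP+ replicate 2 alone was above all GFP- libraries and the other two GFP+ libraries were below their pair, which gave the largest fitted log2 fold change of the S phase members, 0.56 ± 0.99 (SE), and one of -1.29 without GFP+ replicate 2. Rrm1, the large subunit, ranged over 29.1 to 56.5 CPM in GFP+ libraries and 43.6 to 90.5 CPM in GFP- libraries. Of 12 nucleotide synthesis genes, 10 were in the table, 5 with positive and 5 with negative log2 fold changes at a median of 0.01, and 0 were called by edgeR. In 2 of the 10 (20%) every GFP+ library lay below every GFP- library, against 6.01% of all genes tested, and in 0 above, against 3.17%. Paics, a purine synthesis enzyme, stood at 406 ± 278 CPM in the GFP+ fraction and 232 ± 31.3 CPM in GFP- ILCPs, and Rrm2b, the p53-inducible reductase subunit, at 73.5 ± 98.1 CPM in GFP+ and 75.7 ± 100 CPM in the GFP- fraction (mean ± SD, n = 3).

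Ccne2, which encodes a cyclin E that drives entry into S phase, stood at 10.8, 45.2 and 0.595 CPM in GFP+ libraries, against 67.9, 22.3 and 86.6 CPM in GFP- libraries. GFP+ replicate 3 was close to 0 and GFP+ replicate 2 lay inside the GFP- range, with a log2 fold change of -1.64 ± 1.17 (SE). It became -1.07 with GFP+ replicate 3 dropped and -3.37 with GFP+ replicate 2 dropped. The related Ccne1 was low everywhere, 0 to 12 CPM in GFP+ libraries and 2.03 to 5.15 CPM in GFP- libraries. E2f1, a transcription factor of the S phase programme, ranged over 5.65 to 51.9 CPM in GFP+ libraries and 15.6 to 47.1 CPM in GFP- libraries. Slbp, which binds the stem-loop of histone mRNAs, ranged over 29.2 to 55.1 CPM in GFP+ libraries and 50.2 to 116 CPM in GFP- libraries and was lower in GFP+ in each of the 3 pairs.

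Among M phase members, Mki67, the proliferation marker that coats mitotic chromosomes (chr7:135689784-135716361 on GRCm38, minus strand), stood at 590, 2708 and 226 CPM in GFP+ libraries, against 876, 1319 and 2270.5 CPM in GFP- libraries. Top2a, the topoisomerase that separates sister chromatids, stood at 533, 1564 and 113 CPM in GFP+ libraries, against 575, 867 and 1171 CPM in GFP- libraries. For both genes GFP+ replicate 2 was the highest of the 6 libraries and GFP+ replicate 3 the lowest, so that GFP- libraries lay inside the range of GFP+ libraries. The means were 1175 ± 1340.3 CPM in the GFP+ fraction and 1488 ± 713 CPM in the GFP- fraction for Mki67, and 736 ± 746 CPM in the GFP+ fraction and 871 ± 298 CPM in the GFP- fraction for Top2a (SD, n = 3 each). The log2 fold changes, -0.34 ± 0.83 and -0.24 ± 0.79 (SE), became 0.15 and 0.27 when GFP+ replicate 3 was dropped, and -1.88 and -1.44 when GFP+ replicate 2 was.

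Ccna2, the cyclin of S and G2 phase, stood at 57, 232 and 37 CPM in GFP+ libraries, against 88, 91.2 and 98.9 CPM in GFP- libraries. Its GFP- libraries lay close together while GFP+ replicate 2 was above and the other two GFP+ libraries below them, and the log2 fold change of 0.23 ± 0.69 (SE) became -0.062 with scaling to library totals. Cdk1, the kinase that mitotic cyclins activate, ranged over 0 to 10.1 CPM in GFP+ libraries and 7.47 to 15.4 CPM in GFP- libraries. Ccnb1, its principal cyclin, ranged over 7.64 to 28.3 CPM in GFP+ libraries and 18.4 to 60.2 CPM in GFP- libraries. Cdc25c, the phosphatase that activates Cdk1, stood at 3.68, 0 and 0 CPM in GFP+ libraries, against 3.15, 8.73 and 13.2 CPM in GFP- libraries. It was at 0 in 2 GFP+ libraries and within the GFP- range in the other, and edgeR's log2 fold change was -2.74 ± 2.01 (SE). DESeq2 gave Cdc25c an adjusted p of 0.0264 with the replicate block and 0.000542 without GFP+ replicate 1, against 0.997 with all libraries and no block. Of the genes with an adjusted p, those fits called 153 of 12571 and 682 of 13319, against 60 of 14608 with all libraries and no block. GFP+ replicate 1 was the only GFP+ library with Cdc25c counts, so the fit without it left that group at 0. The gene span of Cdc25c overlaps that of the predicted gene Gm3550, and some reads may be shared.

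Ccnb2, a second B cyclin (chr9:70407692-70421547 on GRCm38, minus strand), stood at 36.5, 79.3 and 3376 CPM in GFP+ libraries, against 76.9, 136 and 166 CPM in GFP- libraries. A single library, GFP+ replicate 3, held 87.2% of the CPM summed over the 6 libraries, while GFP+ replicates 1 and 2 were each below their paired GFP- library. EdgeR's log2 fold change was 3.21 ± 1.39 (SE) at an unadjusted p of 0.0431, and it became -1.12 without GFP+ replicate 3. Both genes that flank Ccnb2 in the table lacked such a value in that library: Myo1e stood at 70.2, 139 and 170 CPM in GFP+ libraries, against 99.7, 102 and 76.9 CPM in GFP- libraries. Rnf111 stood at 140, 188 and 19.3 CPM in GFP+ libraries, against 121, 127 and 273 CPM in GFP- libraries. A pseudogene, Ccnb2-ps, is in the table too and may share reads with Ccnb2, and it stood at 21.8, 3.65 and 21.2 CPM in GFP+ libraries, against 5.54, 34.5 and 5.68 CPM in GFP- libraries. The same library carried the high B lineage, plasma cell and Il2ra values given above, and their part in its Ccnb2 value was not tested.

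Of the mitotic kinases, Aurkb, of the chromosomal passenger complex, stood at 39.2, 6.81 and 0 CPM in GFP+ libraries, against 29.2, 96 and 18.7 CPM in GFP- libraries. Plk1, the Polo kinase, stood at 14, 39.4 and 36.5 CPM in GFP+ libraries, against 27.9, 19.5 and 18 CPM in GFP- libraries. GFP+ replicate 3 was at 0 for Aurkb, and it was above all GFP- libraries for Plk1, as was GFP+ replicate 2, and both genes overlapped between groups, with log2 fold changes of -1.64 ± 1.46 and 0.46 ± 0.74 (SE). That of Aurkb became -1.07 with GFP+ replicate 3 dropped, -3.78 with GFP+ replicate 1 dropped and -0.63 with GFP- replicate 2 dropped. That of Plk1 became 0.85, 0.21 and 0.29 with GFP+ replicates 1, 2 and 3 dropped in turn, and 0.72 with GFP- replicate 1 dropped. Aurka, the spindle pole kinase, ranged over 1.19 to 15 CPM in GFP+ libraries and 2.64 to 20.1 CPM in GFP- libraries. Tpx2, its activator, ranged over 31.4 to 155 CPM in GFP+ libraries and 68.9 to 154 CPM in GFP- libraries. Birc5, a passenger complex subunit, ranged over 0.238 to 34.1 CPM in GFP+ libraries and 28.7 to 37.6 CPM in GFP- libraries.

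Bub1b, which encodes the spindle checkpoint protein BubR1, stood at 34.5, 8.71 and 0 CPM in GFP+ libraries, against 34.8, 93.3 and 48.1 CPM in GFP- libraries. It was the only M phase member without overlap between groups, although GFP+ replicate 1 almost touched GFP- replicate 1, and its log2 fold change was -2.03 ± 1.38 (SE; edgeR adjusted p 0.998). It became -3.71 with GFP+ replicate 1 dropped. Bub1, the partner kinase, ranged over 1.43 to 35.8 CPM in GFP+ libraries and 22.2 to 29.2 CPM in GFP- libraries. Cdc20 is the anaphase activator that the checkpoint holds back. It ranged over 0.952 to 10.2 CPM in GFP+ libraries and 1.71 to 15.2 CPM in GFP- libraries. Cenpe, a kinetochore motor, stood at 79.8, 245 and 22.8 CPM in GFP+ libraries, against 79.1, 123 and 133 CPM in GFP- libraries. Kif11, the motor that makes spindles bipolar, stood at 69.2, 160 and 34 CPM in GFP+ libraries, against 78.1, 157 and 147 CPM in GFP- libraries. Both again had their highest value in GFP+ replicate 2 and their lowest in GFP+ replicate 3, with log2 fold changes of 0.05 ± 0.75 and -0.54 ± 0.64 (SE), and that of Cenpe became -0.18 with scaling to library totals. That of Kif11 became -1.31 with GFP+ replicate 2 dropped and -0.16 with GFP+ replicate 3 dropped. Cenpf of the kinetochore ranged over 20.5 to 133 CPM in GFP+ libraries and 65.8 to 139 CPM in GFP- libraries. Kif20a of cytokinesis ranged over 0 to 19.6 CPM in GFP+ libraries and 12.7 to 41.4 CPM in GFP- libraries. Nusap1 of spindle microtubules ranged over 15.8 to 178 CPM in GFP+ libraries and 58.2 to 171 CPM in GFP- libraries.

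**Figure D4:**
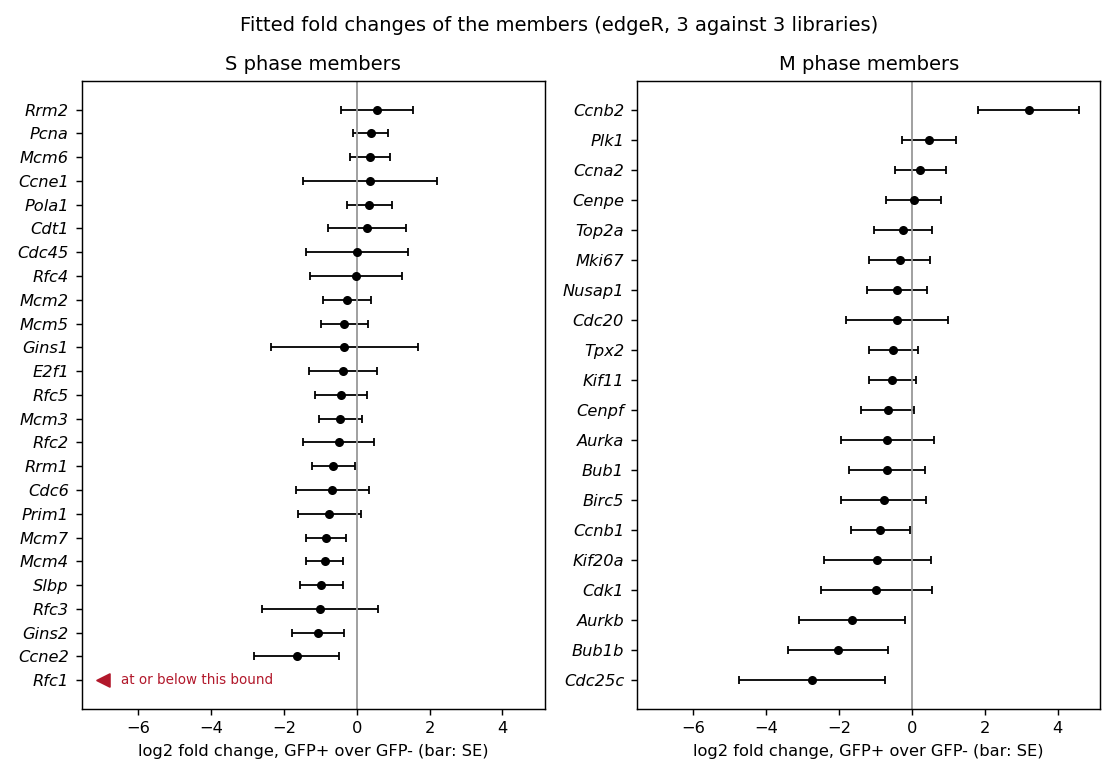
EdgeR log2 fold changes of GFP+ over GFP- (x axis, bars 1 SE) for the S phase members (left) and M phase members (right), ordered by value. The red triangle of Rfc1 marks its bound of -6.98, at least 126-fold lower, since its GFP+ libraries are all at 0, and none of the 45 passed edgeR's test.

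The 45 other kinetochore, spindle and cytokinesis genes tested, of 46 listed, had 9 positive and 36 negative log2 fold changes, at a median of -0.47 and with 0 called by edgeR. Smc4, a condensin subunit, stood at 421 ± 332 CPM in the GFP+ fraction and 457 ± 255 CPM in GFP- ILCPs, and Aspm, a spindle pole protein, at 96.9 ± 113 CPM in GFP+ and 135 ± 55 CPM in the GFP- fraction (mean ± SD, n = 3). The list summed to 1366, 3364 and 921 CPM in GFP+ libraries, against 1805, 2462 and 2806 CPM in GFP- libraries. As for Mki67 and Top2a, GFP+ replicate 2 was the highest library and GFP+ replicate 3 the lowest. In 5 of the 45 (11.1%) every GFP+ library lay below every GFP- library, against 6.01% of all genes tested, and in 0 above, against 3.17%.

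Summed over the 25 S phase members, expression was 1242, 1389 and 867 CPM in GFP+ libraries, against 1380.3, 1643 and 1503 CPM in GFP- libraries. The means were 1166 ± 269 CPM in the GFP+ fraction and 1509 ± 131 CPM in the GFP- fraction (SD, n = 3), and GFP+ was lower in each pair, with GFP+ replicate 2 just above GFP- replicate 1. Summed over the M phase members without Ccnb2, expression was 1664, 5528 and 589 CPM in GFP+ libraries, against 2187, 3329 and 4382 CPM in GFP- libraries. GFP+ replicate 2 thus lay above all GFP- libraries and the other two GFP+ libraries below them. Mki67 and Top2a together gave 57.6% to 78.5% of these sums, which therefore lean on both genes. With Ccnb2 included, the M phase sums were 1700.3, 5607 and 3965 CPM in GFP+ libraries, against 2264, 3464 and 4548 CPM in GFP- libraries. Ccnb2 thus made up most of the sum in GFP+ replicate 3.

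**Figure D5:**
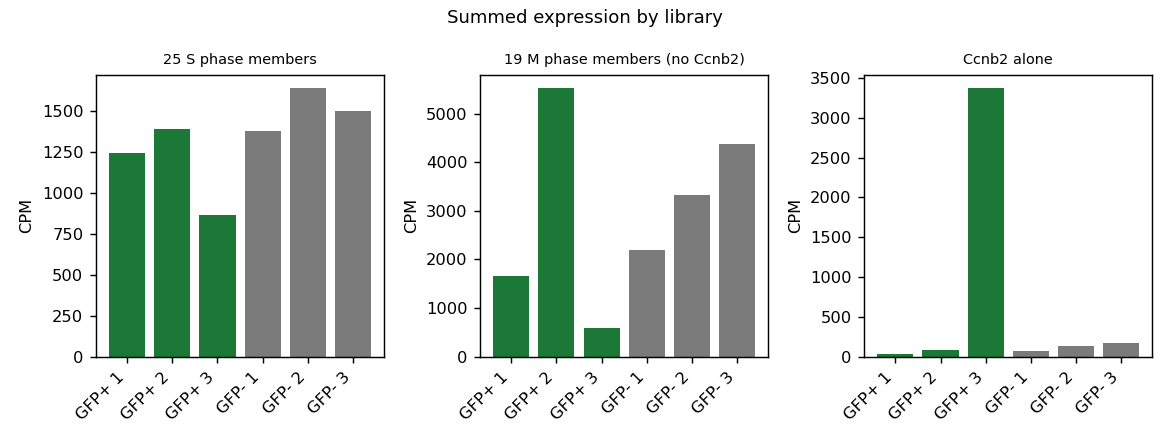
CPM (y axes from 0) in each library, GFP+ in green left of GFP- in grey, for the summed S phase members, the summed M phase members without Ccnb2, and Ccnb2. GFP+ M phase sums run from 589 to 5528 CPM, a range that holds all GFP- sums, and Ccnb2 reaches 3376 CPM in GFP+ replicate 3.

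The balance of the sets moved with these libraries. Without Ccnb2, the M phase sum over the S phase sum was 1.34, 3.98 and 0.68 in GFP+ libraries, against 1.58, 2.03 and 2.91 in GFP- libraries. On the log2 scale, the mean GFP+ minus GFP- difference of that ratio was -0.46 without Ccnb2 and 0.42 with it, so that leaving out 1 gene turned its direction. With Ccnb2 included, that difference ran from 0.10 with GFP+ replicate 3 dropped to 0.97 with GFP+ replicate 1 dropped. Of the 20 M phase members, 15 had their lowest GFP+ value in replicate 3 and 12 their highest in replicate 2, against 43.2% and 33.6% of all tested genes. Of the 25 S phase members, 13 were lowest in GFP+ replicate 3 and 9 highest in GFP+ replicate 2.

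The median log2 fold change was -0.44 for the S phase members, also with Rfc1 placed at its bound, and -0.61 for the M phase members, against -0.03 for all genes tested. Within pairs 1, 2 and 3 the median log2 ratios of GFP+ to GFP- CPM, with a pseudocount of 0.5 CPM, were -0.32, -0.46 and -0.81 for S phase and -0.28, -0.20 and -2.31 for M phase members. The same medians over all tested genes were -0.01, -0.19 and -0.42. Without GFP+ replicate 1 the S phase median was -0.82. It was -0.85 when replicate 1 of both fractions was left out and -0.19 when replicate 2 of both was. Leaving out replicate 2 gave an M phase median of -1.37 (GFP+ alone) or -1.12 (both fractions). Leaving out replicate 3 gave -0.17 (GFP+ alone) or -0.35 (both fractions). It was -0.39 with GFP+ replicate 1 dropped and -0.27 with GFP- replicate 2 dropped. With GFP+ replicate 3 left out, 16 of 25 S phase and 13 of 20 M phase members had negative log2 fold changes.

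Members at 0 numbered 1, 4 and 8 in GFP+ libraries, against 0, 0 and 0 in GFP- libraries. The same libraries had 0.73%, 8.10% and 15.5% of all tested genes at 0 in GFP+, against 0.312%, 1.21% and 3.03% in GFP-. In GFP+ replicate 3 the members at 0 came to 17.8%, near that library's 15.5% over all tested genes, and in GFP+ replicate 2 to 8.89%, near 8.10%. Zeros of the members in GFP+ replicates 2 and 3 thus came at about the rate of those libraries as a whole. In GFP+ replicate 1 the 1 member at 0, Rfc1, came to 2.22%, against 0.73% of all tested genes.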

How the data were processed

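Per the labels' protocols, RNA of the sorted ILCPs was amplified by single primer isothermal amplification (SPIA), in which low transcripts may be lost, and ribosomal RNA was removed before paired-end sequencing. Estimated counts for each gene were deposited without normalization between libraries. Per the submitters' processing notes, Trimmomatic, Bowtie2, kallisto, DESeq2 and GRCm38 were used, with versions and roles not given in the sources used here. Columns of the authors' own comparison hold log2 fold changes, Wald statistics (a score), raw p-values with their adjusted form, and a deposited signal column, the gene's mean scaled count. Strand is not stated, so genes with overlapping spans are uncertain. Besides the members named with such an overlap above, Gins2, Cdc45, Cdt1, Ccne2, Ccna2, Cdc20, Kif20a and Nusap1 overlap other protein-coding genes. Only whole gene spans were compared, and shared exons were not looked at. Symbols that sort late in the alphabet, among them Tyms and Umps, are not analysed here.

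The estimated counts were rounded and tested with edgeR 4.0.16 (robust quasi-likelihood, TMM, filterByExpr, group only) in R 4.3.3, with Benjamini-Hochberg adjustment over all genes at 0.05, beside DESeq2 1.42.0, whose empty adjusted p were kept empty. Fold changes are GFP+ over GFP-. EdgeR reports no SE, so its SE here is the absolute log2 fold change over the square root of the test's F statistic. Per the labels' protocols both fractions of a replicate were sorted from 1 pool of mice, so same-numbered libraries are taken as pairs, and their deviations from the group means correlated at 0.161, -0.121 and -0.131. Floors and bounds cover counting error only. The fits were also run on counts simulated from edgeR's own means and dispersions. That run checked fitted fold changes and does not show how well either tool calls genes in these data. GENCODE vM21 (GRCm38) gave gene positions, and matplotlib 3.10.9 (Python 3.11.15) drew the figures.

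The members and lists were chosen with earlier results of these data known. Values in every library are given for the Rfc and Mcm subunits, Pcna, the 5 members of highest mean per phase, those without overlap between groups, those called by any source, those at 0 in at least 2 libraries, and the 3 largest and 3 smallest fold changes per phase. From each list come its called genes and the 2 of highest mean. Alternatives were DESeq2, the replicate block, other scalings and filters, and each replicate and library left out. DESeq2 variants and sums without Ccnb2 were added after seeing the data.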

Additional observations from a re-analysis of the deposited data

How the results depend on the processing

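DESeq2 called 60 genes and 1 member, where edgeR called 0 and 0. EdgeR with the replicate block, the paired fit, called 0 genes and 0 members, with 209 genes below an unadjusted p of 0.05, and moved the S phase median log2 fold change to -0.76. That median ran from -0.85 to -0.19 with libraries left out, and the ratio of M to S phase sums turned to -0.46 without Ccnb2. The median over all genes, -0.03, became -0.19 with library totals and -0.24 with the block, shifts against which the member values under those settings are to be read. Of the 45 members, 22 kept 1 sign in all 15 alternatives, 19 negative and 3 positive. With libraries left out, the log2 fold changes that turned sign ran over these ranges: Mcm2 -0.66 to 0.073, Mcm5 -0.65 to 0.0036, Mcm6 -0.032 to 0.68, Gins1 -9.62 to 0.47, Cdc6 -1.46 to 0.25, Cdc45 -1.85 to 1.83, Cdt1 -1.07 to 1.05, Rrm2 -1.29 to 1.10, Prim1 -1.39 to 0.0079, Ccne1 -3.85 to 1.37, E2f1 -1.77 to 0.16, Rfc2 -1.11 to 0.099, Rfc4 -2.83 to 2.55, Rfc5 -0.81 to 0.045, Mki67 -1.96 to 0.59, Top2a -1.44 to 0.54, Ccna2 -1.0 to 0.69, Ccnb1 -1.59 to 0.18, Ccnb2 -1.12 to 3.85, Cdc20 -1.53 to 0.86, Cenpe -1.13 to 0.69, Kif20a -1.68 to 0.32 and Nusap1 -1.96 to 0.61. Those that kept their sign, Rfc1 aside, ran over these: Mcm3 -0.85 to -0.10, Mcm4 -1.02 to -0.69, Mcm7 -1.23 to -0.48, Pcna 0.1 to 0.73, Gins2 -1.89 to -0.44, Rrm1 -0.90 to -0.16, Pola1 0.061 to 0.72, Ccne2 -3.76 to -0.68, Slbp -1.22 to -0.43, Rfc3 -1.54 to -0.43, Cdk1 -1.48 to -0.40, Cdc25c -10.22 to -1.69, Aurka -1.74 to -0.011, Aurkb -4.05 to -0.29, Plk1 0.13 to 1.06, Bub1 -2.22 to -0.033, Bub1b -4.0 to -1.27, Cenpf -1.80 to -0.10, Kif11 -1.31 to -0.04, Tpx2 -1.42 to -0.085 and Birc5 -1.39 to -0.20. With the replicate block, signs turned for Cdt1 (-0.077), Rrm2 (-0.34), Ccne1 (-2.68), Rfc4 (0.11), Ccna2 (-0.26) and Cenpe (-0.44). With library totals they turned for Cdt1 (-0.020), Ccna2 (-0.062) and Cenpe (-0.18), and for Rfc4 with DESeq2 (0.0051) and with its size factors (0.0021). The causes were not tested.

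The common biological coefficient of variation was 0.922, and with 3 libraries per fraction this spread limits which differences can be called. A member at 0 in 1 library is not shown to be absent.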

Other observations

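Regulators of the cell cycle programme were looked at as a list of 18 E2F, RB and MuvB genes. Of these, 9 had positive and 9 negative log2 fold changes at a median of -0.01, 0 were called by edgeR and 3 had an unadjusted p below 0.05, against 3.23% of all genes. Rbl2 and Rb1, pocket proteins that restrain E2F and the 2 genes of highest mean, stood at 1222 ± 540 and 318 ± 37.4 CPM in GFP+ ILCPs, against 848 ± 282 and 279 ± 119 CPM in GFP- ILCPs (mean ± SD, n = 3). E2f2, Lin9 and Lin37, given next, were chosen after their values were seen.

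E2f2, an E2F activator, stood at 48.3, 72.1 and 29.9 CPM in GFP+ libraries, against 18.4, 9.51 and 18.7 CPM in GFP- libraries. Lin9 and Lin37, subunits of MuvB, pointed the other way: Lin9 stood at 26, 18.7 and 10.6 CPM in GFP+ libraries, against 46.3, 35.3 and 102 CPM in GFP- libraries. Lin37 stood at 12.8, 12.8 and 6.07 CPM in GFP+ libraries, against 31.3, 34 and 183 CPM in GFP- libraries, with GFP- replicate 3 far above the rest. In none of the 3 did the groups overlap, where 6.01% of tested genes lay wholly lower and 3.17% wholly higher in GFP+. EdgeR's log2 fold changes were 1.69 ± 0.71, -1.73 ± 0.72 and -2.97 ± 0.87 (SE) for E2f2, Lin9 and Lin37, each with an adjusted p of 0.998, and DESeq2 gave adjusted p of 0.469, 0.642 and 0.173. The other listed MuvB subunits, Lin52 and Lin54, had positive log2 fold changes, 0.83 ± 1.10 and 0.71 ± 0.80 (SE), with overlapping groups. Tfdp1 also lay wholly lower in GFP+, at -0.71 ± 0.60 (SE). Of the 18 genes, 3 thus lay wholly lower (16.7%) and 1 wholly higher.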
